A study of Sus scrofa with 2 samples.

Results

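The gonadotropin-related miRNAs of the porcine anterior pituitary were taken from the array by probe name: Y-1, Y-14, Y-47, ssc-miR-325 and every probe whose name begins with ssc-miR-212 or ssc-miR-361. The rule found 6 of the 355 probes, because ssc-miR-361 has a probe for each arm of its hairpin and 0 probe names begin with ssc-miR-212. The rule reads names only, but it was written with earlier results of these data known. The study had called Y-47 and ssc-miR-325 different on these same arrays, so membership is not independent of the signals. Signals came from female piglets 20 days of age, with RNA of 3 Bama minipigs, a small and slow-growing Chinese breed, combined in 1 pool and RNA of 3 Landrace pigs, a large European breed, in the other. Neither group had received a treatment, and each pool was hybridized to 1 array, so the spread between pigs is unknown and no test between the breeds was possible. The tissue was whole anterior pituitary, in which gonadotropes are a minority of the hormone cells, and fewer cells of a type cannot be told apart from less miRNA per cell. The array carries no mRNA of LHB, FSHB or GNRHR, so gonadotrope markers were not checked here. The study measured mRNAs of the same tissue and breeds separately, and those data were not used here.

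Gonadotropes are the anterior pituitary cells that make luteinizing hormone and follicle-stimulating hormone, each built from a common alpha subunit and its own beta subunit (LHB or FSHB), under the control of gonadotropin-releasing hormone (GnRH) from the hypothalamus. A miRNA is a short RNA that guides the Argonaute protein to mRNAs, chiefly through its seed, bases 2 to 8 counted from the 5′ end, and lowers their stability or translation. miR-132 and miR-212 are made from 1 locus that responds to cAMP and the transcription factor CREB, and GnRH is known to raise both in gonadotrope cells. miR-361-3p is known as a regulator of FSHB in pig pituitary cells, miR-325 has been linked to luteinizing hormone in the rat pituitary, and the study tested Y-47 on FSHB.

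The mature sequences are shown because the seed sets which mRNAs a miRNA can pair with and because the members differ in whether they share it. They come from the study's probe lists and are written 5′ to 3′ with the seed in capitals.
Y-1: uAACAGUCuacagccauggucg
ssc-miR-361-5p: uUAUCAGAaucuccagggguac
ssc-miR-361-3p: cCCCCAGGugugauucugauuugc
Y-47: aGGGCACAggaugggaugagga
Y-14: uAGGGCACaggaugggaugagga
ssc-miR-325: cCUAGUAGguguucaguaagugu
The probe list names Y-1 as ssc-miR-132 and both Y-14 and Y-47 as ssc-miR-7139-3p. It gives pig fat or muscle as the origin of Y-14 and Y-47, and other species as that of Y-1. The name of the ssc-miR-325 probe gives no arm.

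Y-14 and Y-47 are 1 miRNA with different 5′ ends. All 22 bases of Y-47 were identical in Y-14, which has 1 more U at its 5′ end, and the study lists the same hairpin for both, in which Y-14 spans bases 50 to 72 and Y-47 bases 51 to 72. The extra base moves the seed from GGGCACA in Y-47 to AGGGCAC in Y-14. Their probes therefore overlap almost wholly in sequence and are not independent measurements. Both are rich in purines, with 18 purines in each (81.8% of the bases of Y-47 and 78.3% of those of Y-14). Over the 355 probes the median purine share was 50%, and 10 probes (2.82%) reached the share of Y-47.

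Among the members, Y-1 was the only one whose seed recurred on the array. Its seed, AACAGUC, was shared by Y-2 and Y-3, added probes to which the probe list gives no miRNA name. This is the seed that miR-132 and miR-212 are known to have in common.
Y-2: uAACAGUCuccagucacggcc
Y-3: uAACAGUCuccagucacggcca
Y-2 and Y-3 were identical over 21 bases and differed by 1 further A at the 3′ end of Y-3. Y-2 matched Y-1 at 17 of 21 positions, counted from the 5′ end. The study lists 1 hairpin for Y-2 and Y-3, different from that of Y-1 and on the same chromosome. In the RefSeq annotation of Sscrofa11.1, MIR132 and MIR212 are neighbours between OVCA2 and HIC1, MIR361 lies within the span of CHM, and MIR7139 lies within that of E2F7.

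The signals of the 6 members ranged from bright to dim. Y-1 (miR-132) stood at place 5 of the 355 probes on each array, ssc-miR-361-5p was also bright, and ssc-miR-361-3p lay near the middle of the signals. Y-14, Y-47 and ssc-miR-325 had signals under 100 in both breeds. Only these 3 dim probes differed by 2-fold or more in signal, each with the higher signal in Bama minipigs, and the 3 brighter members differed by less than 2-fold. A probe's signal also depends on how well that probe binds, so places on the array describe signals and not numbers of molecules.

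**Figure D1:**
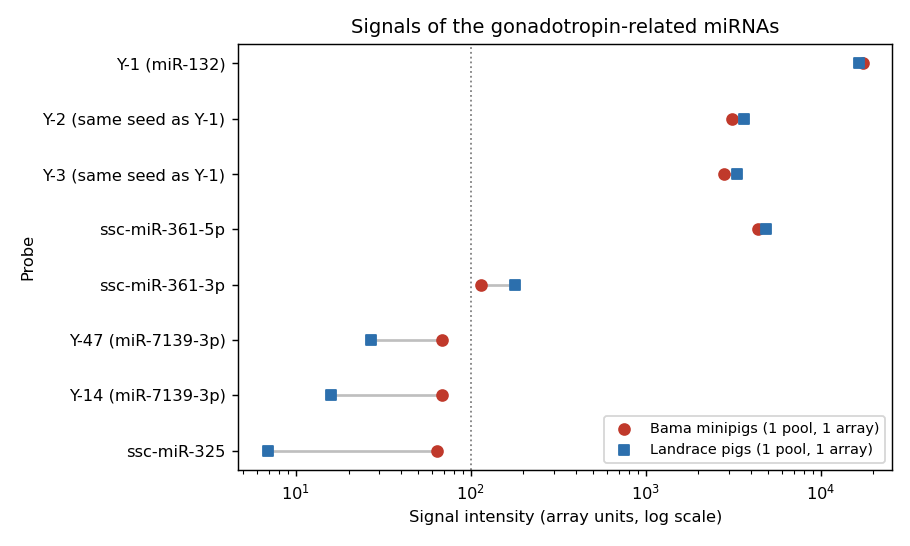
Signal intensity of each member and of Y-2 and Y-3 (horizontal log axis, array units), with a circle for Bama minipigs and a square for Landrace pigs. There is 1 array per breed, so no error bar can be drawn. The dotted line marks a signal of 100, and Y-47, Y-14 and ssc-miR-325 lie to its left on both arrays.

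The signal of Y-1, the miR-132 probe, was 17403 in the Bama minipig pool and 16664 in the Landrace pool. The values differed by 739 signal units, a log2 ratio of 0.063 (Bama minipigs over Landrace pigs, as in all ratios here). Y-1 made up 2.50% of the summed signal in Bama minipigs and 2.48% in Landrace, at place 5 on both. Its log2 ratio was -0.050 after median scaling of the arrays and -0.13 after scaling to the 75th percentile, so no direction can be given for it. Among the 105 probes with a mean signal above 1000, the middle 50% of log2 ratios ran from -0.16 to 0.34, and that of Y-1 lay inside this range.

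Both probes that share the seed of Y-1 had lower signals in Bama minipigs. Y-2 had 3118 in the Bama minipig pool and 3646 in the Landrace pool (log2 ratio -0.23). Y-3 had 2805 and 3341 (log2 ratio -0.25). Their log2 ratios lay 0.026 apart, while that of Y-1 lay 0.29 above that of Y-2. The probes Y-2 and Y-3 overlap almost wholly in sequence and are not independent measurements. Both kept their sign under each of the 7 scalings and offsets, between -0.50 and -0.17 for Y-2 and between -0.51 and -0.19 for Y-3. Both also lay below the middle 50% of probes of that brightness, and 1 array per breed gives no error for these differences.

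miR-361 was measured on both arms. The signal of ssc-miR-361-5p was 4372 in the Bama minipig pool and 4855 in the Landrace pool (log2 ratio -0.15), which placed it at position 57 and position 48 of the 355 probes. The signal of ssc-miR-361-3p, the arm known for FSHB, was 114 in the Bama minipig pool and 179 in the Landrace pool (log2 ratio -0.66). Both arms were thus lower in Bama minipigs. Under the 7 scalings and offsets tried, the log2 ratio of the 5p arm ran between -0.40 and -0.11. That of the 3p arm ran between -0.86 and -0.39. The offsets and the scalings by a single factor could not have turned these negative ratios positive. Only quantile normalization and loess could have, and both arms stayed negative under them. Neither arm reached 2-fold. The 3p signals were also low, and the deposited values do not say how far they stood above background.

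The log2 ratio of the 5p arm was 0.50 higher than that of the 3p arm. Any factor common to a whole array cancels in this difference, as does the binding of each probe. It was 0.34 once 50 units had been added to each signal and 0.24 once 100 units had. The middle 50% of log2 ratios ran from -0.42 to 0.65 over the 77 probes with a mean signal above 100 and up to 1000, the class that holds the 3p arm, so the 3p arm lay below this range.

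For miR-7139-3p, both probes gave nearly the same signal in Bama minipigs. The signal of Y-47 was 68.3 in the Bama minipig pool and 27.0 in the Landrace pool, a difference of 41.3 signal units. The signal of Y-14 was 68.7 in the Bama minipig pool and 15.8 in the Landrace pool, a difference of 52.9. The log2 ratios of these signals were 1.34 for Y-47 and 2.12 for Y-14. The 0.78 between them came from Landrace signals that lay 11.2 units apart, because a small step in a dim signal moves its ratio far.

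The signal of ssc-miR-325 was 64.2 in the Bama minipig pool and 6.91 in the Landrace pool, a difference of 57.2 signal units. The log2 ratio of 3.21 was the largest of the 6 members. On the Landrace array 24.8% of all probes had a lower signal than ssc-miR-325, against 33.0% for Y-14 and 36.9% for Y-47. On the Bama minipig array the shares were 43.7%, 45.1% and 44.8%, respectively.

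The deposited values hold no background, no spread between spots and no call of detection, and signals run down to 0.0247 in Bama minipigs and 0.00531 in Landrace. Whether a dim signal lay above background therefore has to be taken from elsewhere. The study's own detection calls, made from spot data and used here for no value, list these dim probes as detectable in Bama minipigs but not in Landrace. The log2 ratios of Y-14, Y-47 and ssc-miR-325 thus set a signal against one that was not called detectable, and are arithmetic on the signals and not measured folds. The study nevertheless listed Y-47 and ssc-miR-325 as differentially expressed, and did not list Y-14. An offset shows how much the ratios of these 3 probes rest on the lowest values. With 50 units added to both signals, which shrinks the ratios of dim probes by its construction, the log2 ratio was 1.004 for ssc-miR-325, 0.85 for Y-14 and 0.62 for Y-47. With 100 units added, the values were 0.62, 0.54 and 0.41. Under the 4 scalings without an offset, each of the 3 stayed above 1 and the smallest value was 1.08, for Y-47 after quantile normalization.

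**Figure D2:**
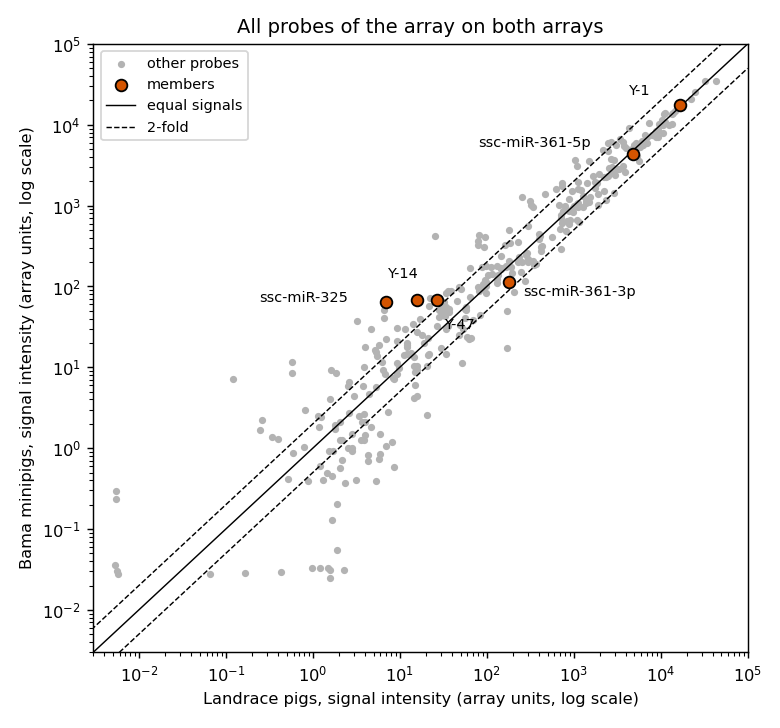
Signal of each of the 355 probes on the Landrace array (horizontal log axis, array units) and on the Bama minipig array (vertical log axis, array units), with the 6 members in orange. The solid line marks equal signals and the dashed lines a 2-fold difference. Y-1 and ssc-miR-361-5p lie close to the solid line at high signals, while ssc-miR-325, Y-14 and Y-47 lie above the upper dashed line in a region where grey points also scatter widely.

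In all, 3 of the 6 members were 2-fold or more higher in Bama minipigs and 0 were 2-fold or more lower. Over all 355 probes, 19.4% were 2-fold or more higher and 15.2% were 2-fold or more lower. The share depended on the brightness of a probe. With a mean signal up to 100 there were 173 probes, of which 26% were higher and 27.7% lower. The 3 dim members belong to this class, and all 3 were higher. Many probes of this class have signals near 0, and among the 84 with a mean signal above 10 and up to 100, a class chosen after the values were seen, 28.6% were higher and 10.7% lower. In that range 64.3% of probes had the higher signal in Bama minipigs and the median log2 ratio was 0.34, the direction of these members. Over all 173 probes up to 100 there was no such lean, with 52.0% higher in Bama minipigs and a median log2 ratio of 0.063. Of the probes with a mean signal above 100 and up to 1000, 18.2% were higher and 5.19% lower, and ssc-miR-361-3p was neither. Above 1000, 9.52% were higher and 1.9% lower, and Y-1 and ssc-miR-361-5p were neither. Since Y-14 and Y-47 measure the same 22 bases, counting them once leaves 2 miRNAs past 2-fold. The study chose the FSHB test of Y-47 from target predictions for miRNAs it had called different on these same arrays. The place of Y-47 among the members is thus not independent of these ratios, and Y-14 is the same miRNA.

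**Figure D3:**
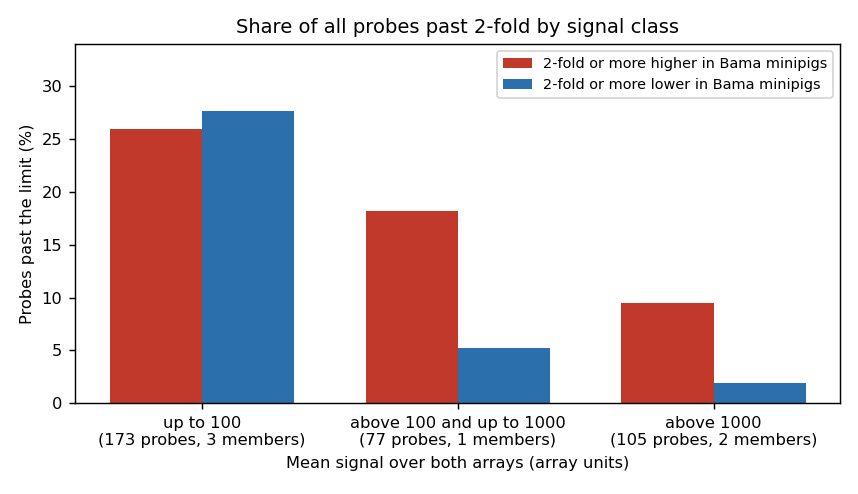
Percentage of all probes (vertical axis) with a signal 2-fold or more higher (red) or lower (blue) in Bama minipigs, by mean signal over both arrays (horizontal axis, array units). The numbers of probes and of members stand under each class. The shares fall from 26% and 27.7% up to a mean signal of 100 to 9.52% and 1.9% above 1000.

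The median log2 ratio of the 6 members was 0.70, beside 0.031 over all 355 probes. It describes no typical member, since it lies between the dim probes, from 1.34 to 3.21, and the brighter ones, from -0.66 to 0.063. Over the 3 members with a signal above 100 on at least 1 array the median was -0.15, and with Y-2 and Y-3 added to the 6 it was -0.044.

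**Figure D4:**
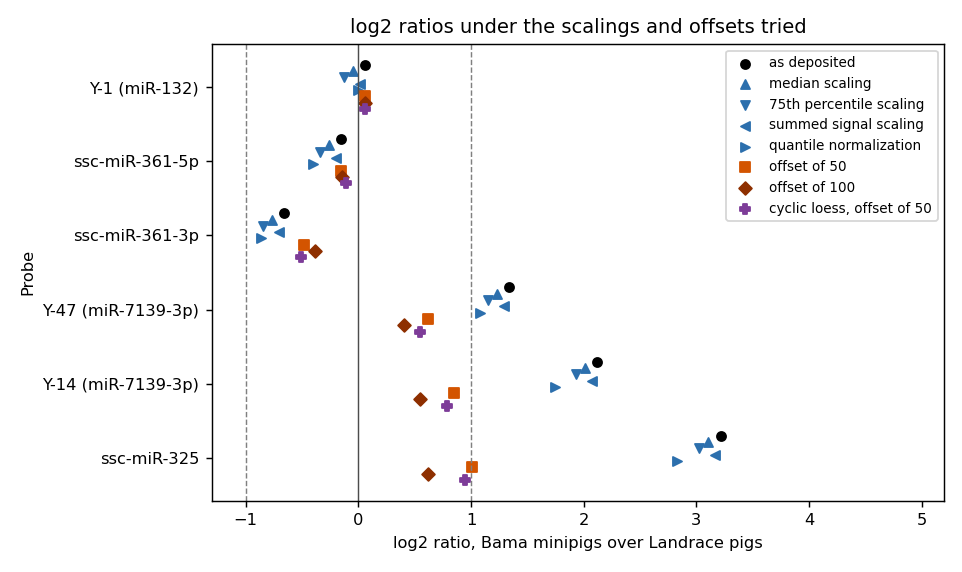
log2 ratio of each member (horizontal axis, Bama minipigs over Landrace pigs) as deposited (black), under 4 scalings without an offset (blue), with an offset of 50 or 100 signal units (orange and brown) and after cyclic loess with an offset of 50 (purple). The dashed lines mark 2-fold. The offsets and loess move ssc-miR-325, Y-14 and Y-47 to between 0.41 and 1.004, and leave Y-1 near 0.

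The probes with signals most like each member on both arrays were found by the distance between log2 signals over the 2 arrays. Nearest to Y-1 were ssc-miR-125a (17307 in the Bama minipig pool and 16149 in the Landrace pool), Y-77 and ssc-let-7g, and nearest to ssc-miR-361-5p were ssc-miR-181a (4224 and 4967), ssc-miR-299 and ssc-miR-99b. For ssc-miR-361-3p they were ssc-miR-500 (149 and 195), ssc-miR-22-5p and ssc-miR-183. Nearest to Y-47 were ssc-miR-124a (66.3 and 27.0), ssc-miR-345-5p and Y-22, and nearest to Y-14 were Y-22 (72.9 and 22.0), ssc-miR-374a* and Y-47 itself. Nearest to ssc-miR-325 were Y-33 (50.6 and 6.61), ssc-miR-122, a liver miRNA (40.3 and 6.56), and ssc-miR-652.

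A site for the seed of Y-47 lies in the part of the FSHB 3′-UTR that the study cloned behind luciferase. It is shown because Y-47 and Y-14 differ there. The 30 bases from position 61 to 90 of the 166-base insert are printed 5′ to 3′ on the sense strand, with the match to the Y-47 seed in capitals.
FSHB: ttgtgtgtacaTGTGCCCaggctgcaaacc
The reverse complement of the Y-47 seed, TGTGCCC, occurred once in the insert, from position 72 to 78, and was followed by an A. The reverse complement of the Y-14 seed, GTGCCCT, did not occur there. Y-14 matched the insert with its bases 3 to 8 only, through GTGCCC from position 73 to 78. Of the seeds of the other members, with bases 2 to 8, 2 to 7 or 3 to 8, 0 matched the insert. For comparison, the seeds of 12 of the 355 probes (3.38%) had a match of bases 2 to 8 in it. Only the sense strand was searched. A match of letters is a description of these sequences and not evidence of binding, and the mRNA and luciferase measurements were not analysed here.

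A list of 8 miRNAs of gonadotropes and other pituitary hormone cells gave the setting for these values. Of the 8, 4 had a log2 ratio above 0 (2 after median or 75th percentile scaling and 3 after summed signal scaling or quantile normalization), 1 was 2-fold or more higher in Bama minipigs and 0 were 2-fold or more lower. The higher one was Y-100, listed as miR-7c, with 7.25 in the Bama minipig pool and 0.122 in the Landrace pool. These are dim signals, with 22.0% of probes lower on the Bama minipig array and 1.69% lower on the Landrace array. The other 7 ran in log2 ratio from -0.32 for ssc-miR-429 to 0.49 for Y-75 (miR-141). The median of the 8 was -0.0059, beside 0.031 over all probes.

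Probes for other cell types were examined on the same arrays. Of 6 striated muscle miRNAs, 3 were 2-fold or more higher in Bama minipigs and 2 were 2-fold or more lower (3 and 0 with an offset of 50 or 100 or after loess), and their summed signal was 1528 in the Bama minipig pool and 660 in the Landrace pool. The 3 higher ones, ssc-miR-1, ssc-miR-133a-3p and ssc-miR-133b, lay between 370 and 439 in Bama minipigs but between 25.1 and 80.6 in Landrace. The 2 lower ones were ssc-miR-206 (117 in the Bama minipig pool and 278 in the Landrace pool) and ssc-miR-208b (0.829 and 4.29). For ssc-miR-499-5p the signals were 175 and 192. Over all 355 probes, 19.4% were 2-fold or more higher in Bama minipigs and 15.2% were 2-fold or more lower. The summed signals of 7 brain and posterior lobe miRNAs were 16684 and 15949, those of 5 blood miRNAs 5497 and 6026, and those of 5 connective tissue and vessel miRNAs 15087 and 19026. Among the blood miRNAs, the leukocyte miRNA ssc-miR-142-3p was near 0 on both arrays, at 0.489 and 1.46. Of the 7 brain and posterior lobe miRNAs, 5 had a log2 ratio above 0 and 1, ssc-miR-124a (66.3 and 27.0), was 2-fold or more higher in Bama minipigs. The summed muscle signal was thus higher in Bama minipigs as deposited. The summed brain and posterior lobe signal was higher by a log2 ratio of only 0.065. The summed signal of all 355 probes was also higher in Bama minipigs, at 695596 against 671754. Median scaling shifts every log2 ratio by -0.11, so the direction of the brain and posterior lobe sum depends on the scaling. Y-14, Y-47 and ssc-miR-325 were higher as deposited, and the part of muscle or of brain and posterior lobe in their signals was not tested.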

How the data were processed

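Small RNAs from 1 pool of anterior pituitary RNA per breed were tailed, tagged, stained with Cy5 and hybridized to a custom chip (255 porcine miRBase probes and 100 added probes prefixed Y-). The values the authors deposited are intensities, not log-transformed. Before that, the authors had removed the background, applied a LOWESS filter and taken the mean of the repeat spots, and how values stayed above 0 is not stated in the methods. Dim signals, and the ratios made from them, depend most on these steps. Every deposited column was used, with no further scaling for the main values.

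For each probe log2 of the Bama minipig signal over the Landrace signal was computed, and all 355 probes were sorted by a limit of 2-fold. With 1 array per breed no p-value was computed, and the number of arrays limits the precision. Alternatives were scaling to the summed signal, to the 75th percentile or to the median of probes above 100 in both breeds, quantile normalization, offsets of 50 and 100, cyclic loess with an offset of 50 (limma 3.58.1 in R 4.3.3) and other sets of probes. The scalings and offsets were tried on simulated data that changed only probes with a mean signal above 100. That trial says nothing about Y-14, Y-47 and ssc-miR-325, whose mean signals were lower. Named were all members, probes with the same seed, the 3 probes nearest to each member and the listed hormone cell and marker miRNAs. The members and lists were chosen with earlier results of these data known. Sequences were read from the study's probe and oligo lists, whose values were not used. Python 3.11.15, numpy 2.4.6, pandas 2.3.3 and matplotlib 3.10.9 were used.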

Additional observations from a re-analysis of the deposited data

How the results depend on the processing

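No paired analysis was possible because each breed had 1 array, and for the same reason no array could be left out. The number of members 2-fold or more higher in Bama minipigs, 3 as deposited, was 3 under median, 75th percentile and summed signal scaling and quantile normalization. It was 1 with an offset of 50, and 0 with an offset of 100, after cyclic loess with an offset of 50 or with only the members above a signal of 100 on at least 1 array. These offsets lower the ratios of dim probes by construction. It was 2 with Y-14 and Y-47 counted once. The number 2-fold or more lower was 0 throughout. The median log2 ratio of the members, 0.70, was 0.23 with the offset of 100, 0.31 after loess, 0.063 with Y-14 and Y-47 counted once, -0.15 over the members above 100 and -0.044 with Y-2 and Y-3 added. Among single members, ssc-miR-325 moved most, from 3.21 to 1.004 and 0.62 with the offsets and 0.94 after loess. The differences within the pairs of probes cannot change under median, 75th percentile or summed signal scaling. They kept their sign under quantile normalization, both offsets and cyclic loess. A log2 ratio of a single member was taken as unchanged within 1 robust SD of the ratios of probes of like signal (1.71 up to a mean signal of 100, 0.64 up to 1000 and 0.38 above). The median of the members was judged by the 0.38. The limit of 1.71 is wide, so Y-14 at 0.54 and Y-47 at 0.41 with the offset of 100 still counted as unchanged. The largest shift of the median log2 ratio of all probes by a scaling was -0.19, at the 75th percentile. Signal over background, not held in the deposited values, limits Y-14, Y-47 and ssc-miR-325.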
